A study of Mus musculus with 15 samples.

Results

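The 10 genes described here encode Wnt ligands: Wnt2, Wnt2b, Wnt4, Wnt5a, Wnt5b, Wnt6, Wnt9a, Wnt10a, Wnt10b and Wnt11. They were chosen by gene symbol from a table of 56832 genes, and 6 of them (Wnt2, Wnt2b, Wnt6, Wnt9a, Wnt10a and Wnt10b) are classed as canonical ligands, while 4 (Wnt4, Wnt5a, Wnt5b and Wnt11) are classed as non-canonical. Wnt4 has been assigned to both classes. The libraries were made from mesenchymal stromal cells (MSCs) of the long bones of mice with or without the taurine transporter TauT, the product of Slc6a6. The 15 bulk RNA-seq libraries comprised 4 male TauT WT, 4 male TauT KO, 3 female TauT WT and 4 female TauT KO cultures, and the comparison asked how loss of TauT changes the transcriptome of these cells.

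The mice were 16 weeks old and of C57BL/6J background. The knockout was global, so that every cell type of the animal lacked the gene, and the labels name no treatment of either genotype. Marrow cells were grown to confluency on collagen at low oxygen, and MSCs were enriched by depleting cells that carry CD45, Ter119 or CD31, the surface markers of blood, erythroid and endothelial cells. Nothing in the sources used here says whether libraries of a group came from separate animals, so p-values measure only the spread between these libraries, which may be partly technical.

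Wnt ligands are secreted lipid-modified glycoproteins. In the endoplasmic reticulum the acyltransferase Porcn attaches a fatty acid to a conserved serine, and the carrier Wls then escorts the ligand to the cell surface. Canonical ligands bind Frizzled receptors together with Lrp5 or Lrp6 and stabilize β-catenin, which drives osteoblast differentiation in the marrow stroma. Non-canonical ligands act through Frizzled with Ror1, Ror2 or Ryk on the cytoskeleton, cell polarity and calcium, and can antagonize the canonical branch.

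The coding stretch around the lipid-accepting serine shows what the ligands have in common at the site that Porcn modifies. Each run below has 24 bases, is written 5′ to 3′ on the coding strand from the GENCODE M39 transcripts on GRCm39, and has the serine codon in capitals. Wnt5a and Wnt10b are shown as the ligands of highest level, Wnt6 as the ligand with the largest genotype estimate, Wnt11 and Wnt9a as the most similar runs of opposite class, and Wnt10a as the closest relative of Wnt10b.
Wnt5a: tgtcatggagtgTCTggctcctgt
Wnt11: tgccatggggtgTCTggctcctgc
Wnt9a: tgccatggtgtgTCTggctcctgc
Wnt6: tgccatgggcttTCGggttcctgc
Wnt10b: tgccatggaacgTCAggcagctgc
Wnt10a: tgccacggcaccTCAggcagctgc
The Wnt5a run lies at chr14:28244472-28244495 in exon 5 of 5 and the Wnt10b run at chr15:98670759-98670782 on the minus strand, in exon 5 of 5. The Wnt6 run lies at chr1:74823331-74823354 in exon 4 of 4 and the Wnt10a run at chr1:74842315-74842338 in exon 4 of 4. The Wnt11 run (chr7:98499467-98499490, exon 4 of 5) and the Wnt9a run (chr11:59221752-59221775, exon 4 of 4) are identical at 23 of 24 bases, although the genes belong to opposite classes. Wnt2 and Wnt2b also share 23 of 24 bases, Wnt10a and Wnt10b share 21, and the least similar pair, Wnt2 and Wnt10a, shares 12.

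Several properties of the libraries bear on every value below. The male-labelled libraries held 69764291 to 101575071 counts and the female-labelled libraries 12761107 to 20781070, so that the sex label and depth cannot be told apart. The levels of Xist and of Ddx3y, which lies on the Y chromosome, contradicted the labelled sex in 3 libraries (male WT 1, male KO 1 and female WT 3). Male KO 1 and female KO 1 were nearly alike, with a spread of log2 ratios over genes of 0.116, as were male WT 1 and female WT 1 with 0.128, while the next closest pair of libraries had 0.289. These spreads were 1.67, 1.71 and 6.76 times the counting noise. Each near-identical pair also shared its sex-linked pattern, with Xist at 718 and 891 CPM in the KO pair and at 833 and 754 CPM in the WT pair and with Ddx3y at 0.205 CPM or less, although its libraries carry opposite sex labels. The sources used here do not say whether a pair came from 1 animal or culture, and a spread above counting noise does not show that it did not. If it did, 15 libraries count each pair as separate samples when they are not, and the contrasts between sex labels set such a sample against itself. The libraries were kept as the labels give them, with alternative fits in which 1 of each pair was left out. The targeted gene Slc6a6 was detected in every library, at 586 to 2655 CPM (each library's counts scaled to a common total) in WT and 392 to 1571 CPM in KO (log2 fold change -0.94 ± 0.37, SE; adjusted p = 0.141, edgeR), with overlapping groups. The part of Slc6a6 that was deleted is not given in the sources used here, so its level checks the genotype labels only weakly.

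Of the 12 MSC markers checked, all were detected in at least 1 library of each genotype, and their summed level ranged from 27952 to 46799 CPM in WT and from 6512 to 40564 CPM in KO. Single markers differed widely. Lepr did not exceed 2.37 CPM in any library and was 0 in female KO 4, while Cxcl12 ran from 89.4 to 23170 CPM and Col1a1 from 2400 to 23015 CPM. All 15 macrophage markers were detected too, with Ptprc, which encodes the depleted CD45, at 28.6 to 379 CPM, and with a summed level of 1601 to 10349 CPM in WT (median 9166) and 7453 to 24979 CPM in KO (median 18060). The 8 endothelial markers summed to at most 27.0 CPM in WT and at most 238 CPM in KO, although the defining genes Pecam1 (CD31) and Cdh5 did not exceed 6.68 and 0.693 CPM in any library, and the 5 erythroid markers summed to at most 0.112 CPM. In bulk samples, fewer cells of a type and less RNA per cell cannot be told apart.

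Wnt5a, a non-canonical ligand best known for signalling through Ror2, was the most abundant of the ligands. In CPM scaled by the trimmed mean of M-values (TMM), Wnt5a had 22.3, 49.1, 108 and 18.1 CPM in the 4 male WT libraries and 20.9, 41.0 and 34.1 CPM in the 3 female WT libraries. In the KO it had 91.0, 9.21, 73.7 and 61.1 CPM in the male libraries and 80.2, 45.8, 44.7 and 15.3 CPM in the female libraries. The highest value was in a WT and the lowest in a KO library, and the genotypes overlapped across most of the range.

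Wnt10b, a canonical ligand that favours osteoblast over adipocyte formation, was the next in order. It had 0.895, 15.4, 25.9 and 11.6 CPM in male WT, 26.0, 14.6, 20.6 and 8.29 CPM in male KO, 1.12, 6.50 and 29.2 CPM in female WT, and 22.4, 10.5, 7.60 and 0.862 CPM in female KO. The lowest values, near 1 CPM, came from the near-identical WT libraries and from female KO 4. Leaving these 3 libraries aside, Wnt10b stayed between 6.50 and 29.2 CPM.

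**Figure D1:**
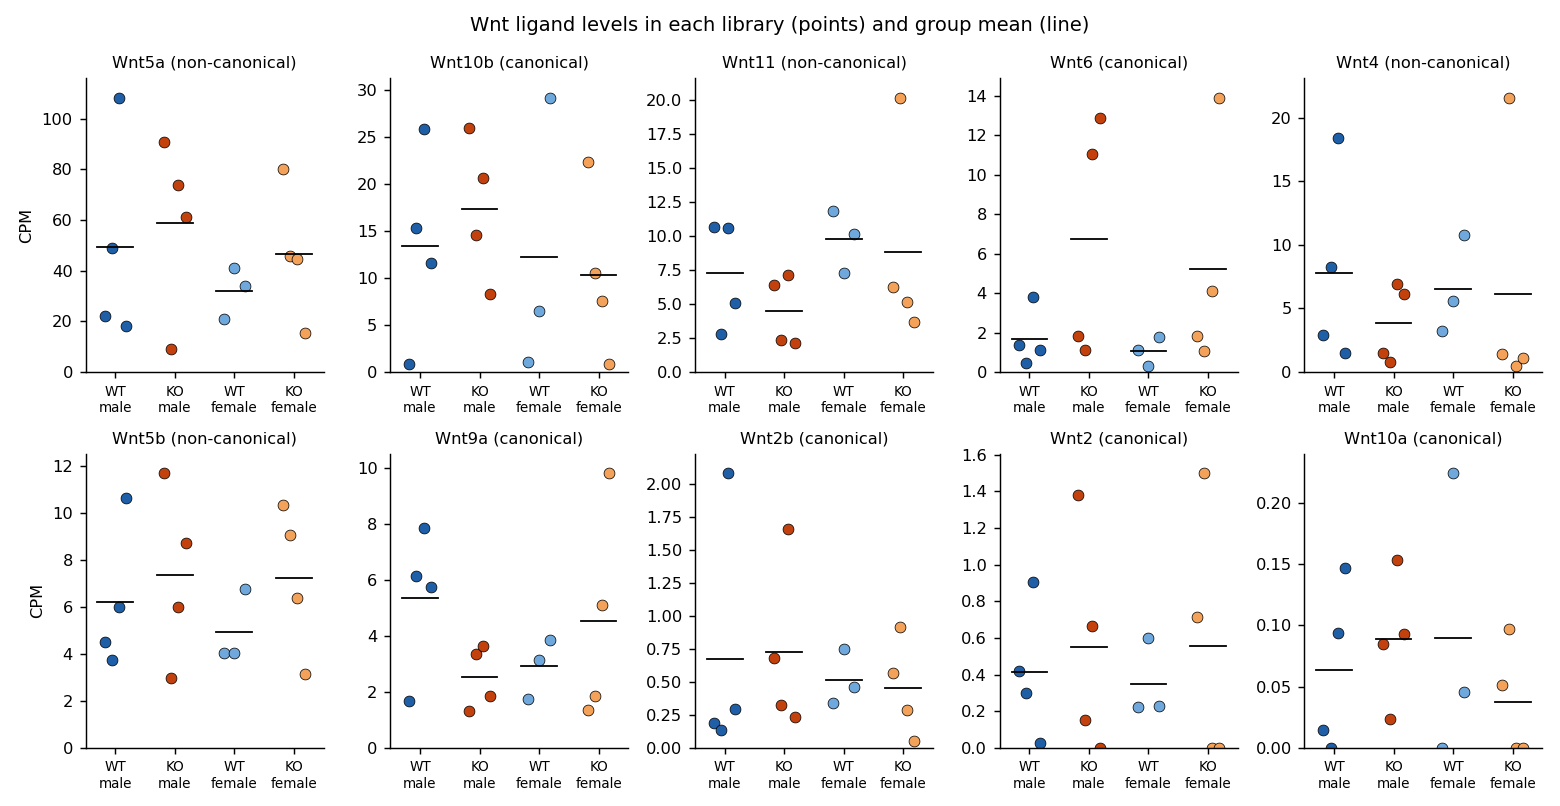
TMM-scaled CPM (vertical axes, linear, from 0) of each Wnt ligand in the 15 libraries, by genotype and sex label; points are libraries and lines are group means. For each of the 10 ligands the WT and KO points overlap, and the 4 highest values of Wnt6 that exceed every WT library lie in the KO.

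To order the ligands on a scale that can be compared between genes, CPM was divided by the length of the union of a gene's exons. Wnt5a reached a mean of 5.93 ± 3.72 CPM per kilobase (SD, n = 15), followed by Wnt10b at 2.64 ± 1.88 and the non-canonical ligand Wnt11, which acts in cell movement and osteoblast maturation, at 1.48 ± 0.935. A group of intermediate level then held Wnt6 at 1.37 ± 1.66, Wnt4 at 1.20 ± 1.28, Wnt5b, a close paralog of Wnt5a, at 1.15 ± 0.511 and Wnt9a, which acts in joint and skeletal development, at 0.994 ± 0.658 CPM per kilobase. Wnt2b, Wnt2 and Wnt10a were far lower, with means of 0.109, 0.0377 and 0.0161 CPM per kilobase.

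Each neighbouring pair in this order was compared over the 15 libraries by an exact two-sided paired permutation test of log2(CPM per kilobase + 0.1), with p-values adjusted over 9 pairs. The order came from the means of these same libraries, so the pairs were not chosen independently of the test. Both libraries of each near-identical pair counted separately. Wnt5a exceeded Wnt10b in 12 of 15 libraries by 1.39 ± 1.27 on this log2 scale (SD; adjusted p = 0.00513 by the exact permutation test). Wnt9a exceeded Wnt2b in 15 of 15 libraries by 2.29 ± 1.05, and Wnt2b exceeded Wnt2 in 15 of 15 by 0.52 ± 0.44, each with the smallest p this test can give (6.10e-05, adjusted 0.000275; exact permutation test). The order of Wnt5a and Wnt10b passed under all 22 alternatives tried for this ordering (adjusted exact permutation p 0.00137 to 0.0176), whereas that of Wnt2b and Wnt2 was lost on the CPM scale with no division by length (10 of 15 libraries, adjusted exact permutation p = 0.190). For the other 6 pairs the difference was not larger than the spread, with adjusted exact permutation p between 0.0829 and 0.878. The order of neighbours within Wnt10b, Wnt11, Wnt6, Wnt4, Wnt5b and Wnt9a was therefore not resolved, nor was that of Wnt2 and Wnt10a on this scale. Wnt2 did exceed Wnt10a with no division by length (11 of 15 libraries) and with the longest transcript as length (adjusted exact permutation p = 0.00659 and 0.0214). Wnt4 exceeded Wnt5b in 6 of 15 libraries, with a mean log2 difference of -0.46 ± 1.48 (SD), opposite to the order of their means. Ligands that are not neighbours in this order, such as Wnt10b and Wnt9a, were not tested against each other.

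Wnt5a ranked first in 11 libraries, Wnt10b in 3 (male WT 4, male KO 2 and female WT 3) and Wnt6 in 1 (female KO 4). Wnt6 took rank 7 of 10 by its WT mean and rank 3 by its KO mean, whereas Wnt5a, Wnt10b, Wnt2b, Wnt2 and Wnt10a held the same rank in both genotypes. With 1 of each near-identical pair left out, either way, Wnt6 and Wnt11 exchanged places, while Wnt5a and Wnt10b stayed first and second.

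**Figure D2:**
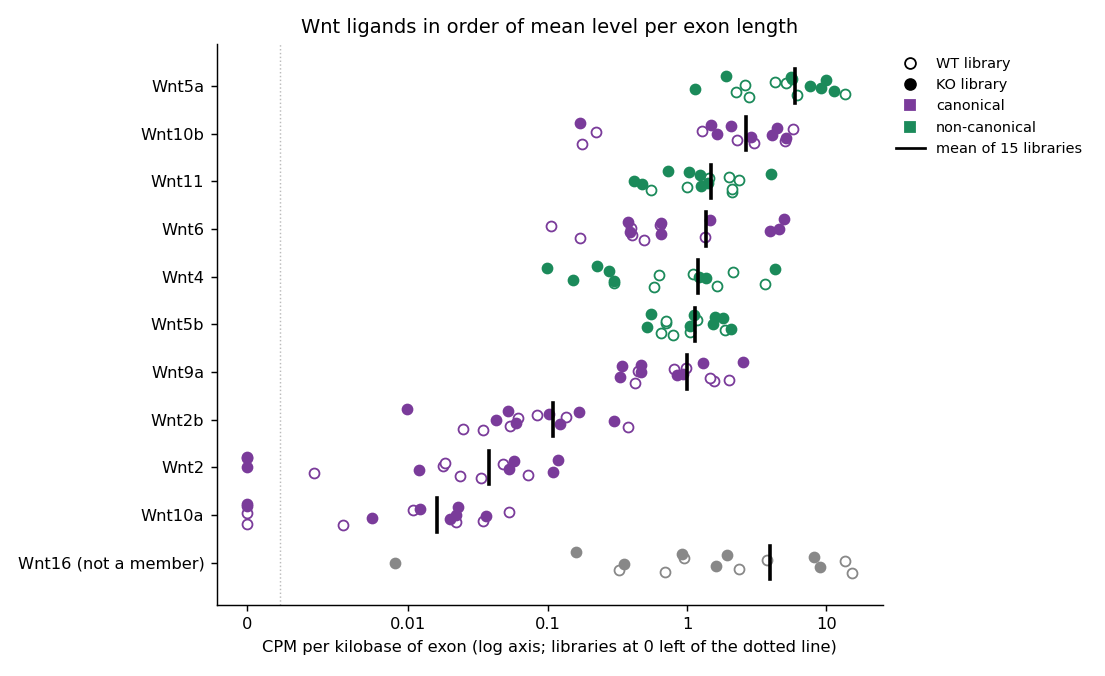
Level of each Wnt ligand in CPM per kilobase of exon (horizontal log axis, libraries at 0 set left of the dotted line); open points are WT and filled points KO libraries, black lines are means of 15 libraries, and colour gives the class. Wnt5a has the highest mean of the 10 ligands (5.93), 7 ligands average between 0.994 and 5.93, and Wnt2b, Wnt2 and Wnt10a lie well to the left. The last row shows Wnt16, which is not among the 10.

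The 4 non-canonical ligands made up 70.5% ± 12.1 (SD, n = 7) of the summed level per kilobase of the 10 ligands in WT, with a range of 56.1% to 84.6%. In the KO they made up 59.3% ± 17.8 (SD, n = 8), with a range of 30.9% to 82.8%. The ranges overlapped widely, and this share is given as a description with no test. Wnt5a alone supplied 36.9% ± 9.85 of the sum in WT and 37.7% ± 14.4 in KO, so its part of the total was close in both genotypes. Wnt10b supplied 2.38% to 33.7% (median 17.4%) in WT and 1.53% to 44.3% (median 15.2%) in KO, while Wnt6 supplied 3.81% ± 2.06 in WT and 14.4% ± 14.9 in KO. The lowest non-canonical share, 30.9%, belonged to female KO 4, where Wnt6 formed 44.7% of the sum. With Wnt4 counted as canonical, the shares were 61.0% in WT and 53.8% in KO.

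**Figure D3:**
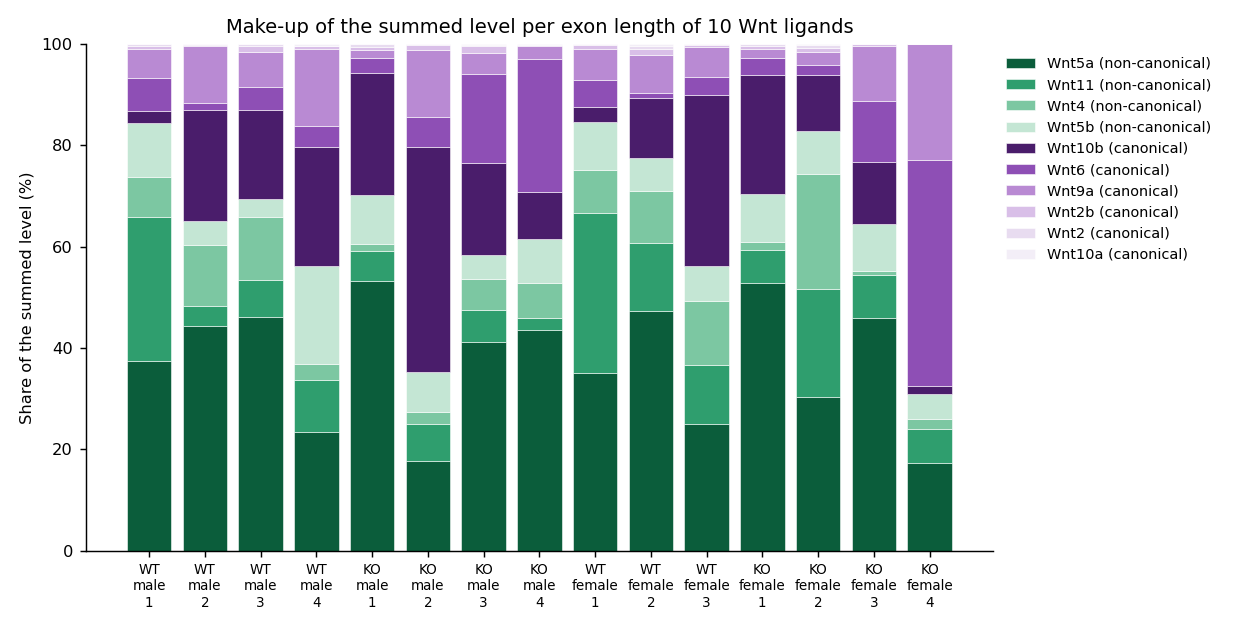
Share (%) of the summed CPM per kilobase contributed by each of the 10 ligands in each library, with non-canonical ligands in green at the base and canonical ligands in purple above. The green part runs from 30.9% in female KO 4 to 84.6% in female WT 1.

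None of the 10 ligands passed the test for a genotype difference. The test was edgeR's quasi-likelihood F test with sex label in the model and Benjamini-Hochberg adjustment over 18263 tested genes at a threshold of 0.05. All 10 ligands passed the filter on low counts, and 0 were called, where 1.16% of all tested genes were called (103 genes or 0.564% higher and 108 genes or 0.591% lower in KO). At an unadjusted p under 0.05, 1 ligand (Wnt6) and 23.6% of all tested genes passed. DESeq2 with the same terms called 1 ligand, Wnt6, as higher, and 11.6% of the genes it tested (5.28% higher and 6.31% lower). The ligands' median log2 fold change was 0.07 and that of all tested genes 0.0049, with 6 ligands positive and 4 negative. No ligand had genotypes without overlap in CPM, where 1.12% of tested genes did.

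Wnt6, a canonical ligand known from epithelial and mesenchymal development, had the largest estimate of the 10. It had 1.37, 0.479, 3.80 and 1.13 CPM in male WT and 1.12, 0.299 and 1.79 CPM in female WT. In the KO it had 1.83, 1.10, 11.1 and 12.9 CPM in the male and 1.84, 1.06, 4.12 and 13.9 CPM in the female libraries. Of the 8 KO libraries, 4 lay above the highest WT library and 6 above the WT median, and the other KO libraries lay among the WT values.

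The log2 fold change of Wnt6 was 2.11 ± 0.70 (SE, 95% interval 0.605 to 3.61), a fitted 4.31-fold difference, with an adjusted p of 0.103 in edgeR. DESeq2 gave 2.09 ± 0.65 with an adjusted p of 0.0203. Over 29 alternative fits the adjusted p ranged from 0.0203 to 0.845, and DESeq2 was the only one of them in which it was under 0.05. The estimate was 1.98 ± 0.96 in male-labelled and 2.27 ± 1.11 in female-labelled libraries (adjusted p = 0.574 and 0.358, edgeR), where 0.0% of tested genes were called in either contrast. In the male and female contrasts 0 of 10 ligands had an unadjusted p under 0.05, against 8.7% and 14.8% of all tested genes, and DESeq2 called 0 ligands against 0.466% and 2.52% of genes. With the replicate number as a block, the male contrast again called 0 ligands (smallest adjusted p 0.385, edgeR), while 2 had an unadjusted p under 0.05, Wnt6 at 1.64 ± 0.49 and Wnt9a at -0.998 ± 0.29. Without female KO 4 the estimate over both labels was 1.59, and without male WT 3 it was 2.48, which bound the 15 estimates made with a single library omitted.

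Macrophage markers were high in the KO libraries with the most Wnt6, but not only in these. The 4 KO libraries with more Wnt6 than any WT library also had more summed macrophage marker than any WT library, at 18042 to 24979 CPM against at most 10349 CPM. Of the 6 KO libraries above every WT library in these markers, the other 2 did not exceed the highest WT library in Wnt6: female KO 2 had 21553 CPM of the markers and 1.06 CPM of Wnt6, and male KO 2 had 12343 and 1.10 CPM. All 15 macrophage markers had a positive genotype estimate and 1, the lysosomal protein Cd68, was called higher by edgeR (8 by DESeq2). Of all tested genes, edgeR called 0.564% and DESeq2 5.28% higher. When the model also held the average macrophage marker level, the Wnt6 estimate was 0.67 ± 0.82 with an adjusted p of 0.845, and edgeR called 0 genes in either direction. The macrophage level itself differed by genotype, since 6 of 8 KO libraries lay above every WT library. This fit therefore cannot tell genotype and macrophage level apart, for Wnt6 or for any other gene. The endothelial markers were also highest in female KO 4, at 238 CPM. The 7 osteoblast markers summed to 1578 to 7563 CPM in WT (median 4231) and 3328 to 17070 CPM in KO (median 9794), with 3328 CPM in female KO 4. Of 6 tested osteoblast genes 5 had negative genotype estimates, while Spp1 averaged 4020 CPM in WT and 10393 CPM in KO. The part of endothelial and osteoblast markers in the Wnt6 values was not tested.

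**Figure D4:**
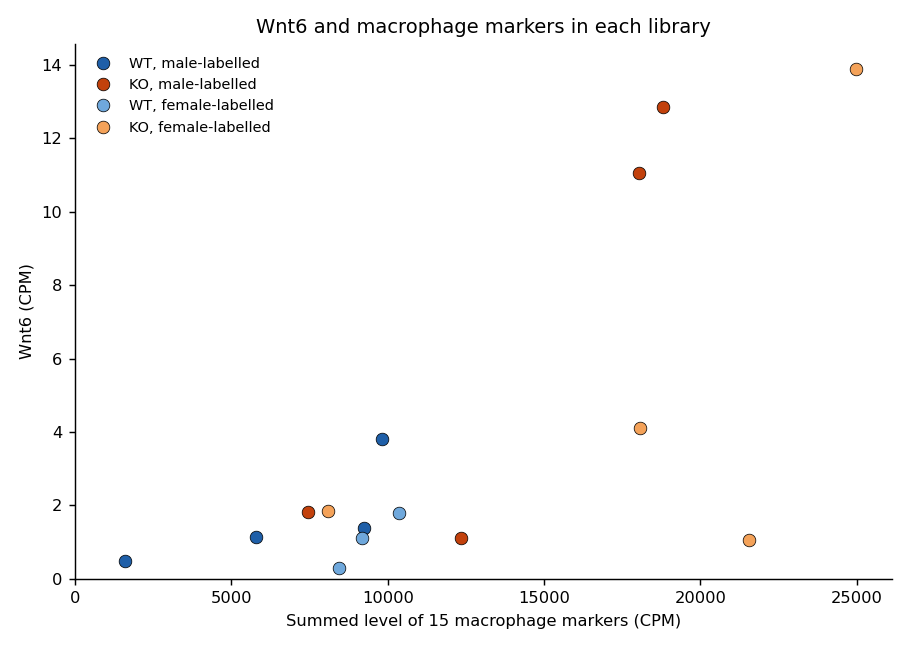
Wnt6 in CPM (vertical axis) against the summed CPM of 15 macrophage markers (horizontal axis, CPM), 1 point per library, coloured by genotype and sex label. The 3 highest Wnt6 values, 11.1 to 13.9 CPM, are KO libraries with 18042 to 24979 CPM of macrophage markers, while KO libraries with 12343 and 21553 CPM lie near 1 CPM.

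For the 4 non-canonical ligands the 95% intervals included 0. Wnt5a had a log2 fold change of 0.38 ± 0.48 (SE, 95% interval -0.65 to 1.41; adjusted p = 0.664), with 6 of 8 KO libraries above the WT median and 2 below the lowest WT library. Wnt5b, which ranged from 3.74 to 10.6 CPM in WT and from 2.96 to 11.7 CPM in KO, had 0.38 ± 0.33 (-0.33 to 1.09; adjusted p = 0.512). Wnt11 ranged from 2.79 to 11.9 CPM in WT and from 2.12 to 20.2 CPM in KO, with 1 of 8 KO libraries above the WT median and an estimate of -0.44 ± 0.42 (-1.35 to 0.46; adjusted p = 0.553). Wnt4, known for its role in kidney and female reproductive development, ranged from 1.50 to 18.4 CPM in WT and from 0.497 to 21.6 CPM in KO, with -0.60 ± 0.81 (-2.32 to 1.12; adjusted p = 0.684). In Wnt4 and Wnt11 the highest KO value came from the same library, female KO 2, and in Wnt4 4 of 8 KO libraries lay below the lowest WT library. All adjusted p-values here are from edgeR.

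The intervals of the other canonical ligands also included 0. Wnt10b had a log2 fold change of 0.085 ± 0.71 (SE, 95% interval -1.43 to 1.60; adjusted p = 0.958), and its sign turned negative with 1 of each near-identical pair left out (-0.34 and -0.28). Wnt9a had -0.33 ± 0.52 (-1.43 to 0.78; adjusted p = 0.737). By sex label it had 1.66, 6.13, 7.86 and 5.74 CPM in male WT and 1.29, 3.33, 3.65 and 1.84 CPM in male KO, against 1.74, 3.14 and 3.86 CPM in female WT and 1.33, 1.84, 5.12 and 9.80 CPM in female KO. The estimate was -1.08 ± 0.62 in male-labelled and 0.63 ± 0.68 in female-labelled libraries, and their difference, 1.71 ± 0.92, did not pass (unadjusted p = 0.0849, adjusted p = 1.000, edgeR). The female estimate turned to -0.12 without female KO 4.

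**Figure D5:**
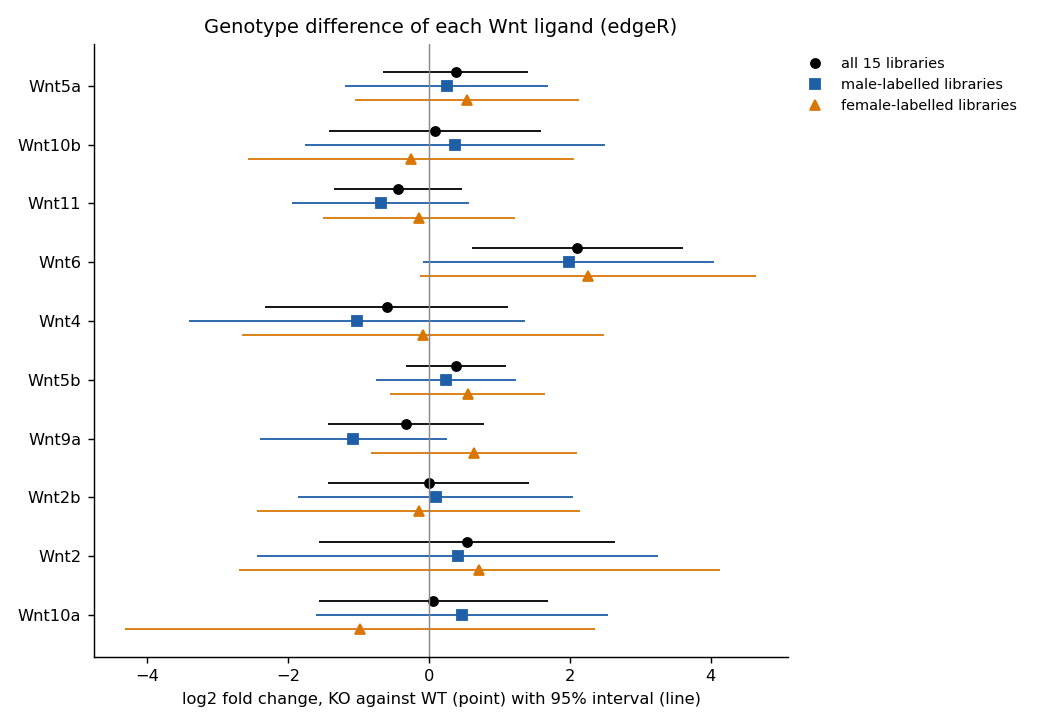
Log2 fold change of KO against WT (horizontal axis) for each ligand from edgeR, in all 15 libraries and within each sex label; points are estimates and lines 95% intervals. The interval of Wnt6 over all libraries, 0.605 to 3.61, is the only one of the 30 that does not cross 0.

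Wnt2b, Wnt2 and Wnt10a were low throughout. Wnt2b ranged from 0.137 to 2.08 CPM in WT and from 0.0538 to 1.66 CPM in KO, with an estimate of -0.006 ± 0.67 (SE; adjusted p = 0.997). Wnt2, a ligand with roles in lung and vessel development, ranged from 0.0266 to 0.905 CPM in WT and from 0 to 1.50 CPM in KO, with 0.53 ± 0.98 (adjusted p = 0.777). It had 0 counts in male KO 4, female KO 3 and female KO 4, where 3 counts, the limit that a count of 0 allows, correspond to 0.0350, 0.202 and 0.144 CPM. Wnt10a had at most 0.224 CPM and 0 counts in male WT 2, female WT 1, female KO 3 and female KO 4, with limits of 0.0318, 0.173, 0.202 and 0.144 CPM, and its estimate was 0.061 ± 0.76 (adjusted p = 0.972). These limits cover counting error only. The 95% intervals of the genotype estimates were wide, at -1.43 to 1.42 for Wnt2b, -1.57 to 2.64 for Wnt2 and -1.57 to 1.69 for Wnt10a. Differences within them were not detectable with these libraries.

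No ligand differed between the sex labels (0 of 10, edgeR; smallest adjusted p 0.842), where 0.0164% of tested genes were called. At an unadjusted p under 0.05 the count was also 0, against 5.75% of all tested genes, and DESeq2 called 0 ligands and 0.192% of genes. For the difference of the genotype effect between labels, 0 ligands and 0.0% of genes were called by edgeR, with 0 ligands and 1.62% of genes at an unadjusted p under 0.05 and 0 ligands and 0.00608% of genes called by DESeq2.

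Of the 9 other mouse Wnt ligand genes, Wnt16 was the only one that reached 1 CPM in any library. Wnt16, which in bone is made by osteoblasts and protects cortical bone, averaged 3.95 ± 5.10 CPM per kilobase (SD, n = 15) and ranged from 1.42 to 67.0 CPM in WT and from 0.0350 to 39.2 CPM in KO. In WT its mean was 5.30 ± 6.41 CPM per kilobase (SD) against 5.23 ± 3.91 for Wnt5a. In KO it was 2.77 ± 3.66 against 6.55 ± 3.69 for Wnt5a. Per kilobase, it exceeded all 10 ligands in male WT 1, female WT 1 and male WT 4, and it supplied 67.5% of the summed level of the 11 genes in male WT 1. The near-identical libraries had its highest values, at 67.0 and 59.6 CPM in the WT pair and 39.2 and 35.7 CPM in the KO pair. No other library exceeded 16.4 CPM. The means and mean shares of Wnt16 given here count both libraries of each pair. The log2 fold change of Wnt16 was -0.94 ± 1.09 (adjusted p = 0.629, edgeR) and 0.0076 when male WT 1 was left out. With Wnt16 in the sum but not counted as non-canonical, the non-canonical share was 49.1% in WT and 51.4% in KO. The WT mean was then no longer the higher. Wnt16 was given no class here, and its own share averaged 27.0% in WT and 12.4% in KO. The order of the genotypes in this sum therefore depends on how Wnt16 is classed. The remaining 8 genes did not exceed 0.367 CPM, and Wnt3a had 0 counts in all libraries.

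The positions of the genes limit some of these values. Wnt6 (chr1:74810922-74824975) and Wnt10a (chr1:74830675-74844355) lie 5699 bp apart on the same strand with no coding gene between them, yet Wnt6 was 1.37 and Wnt10a 0.0161 CPM per kilobase on average. Wnt10b (chr15:98668593-98690045) shares 489 exon bases with Wnt1 on the opposite strand, and Wnt1 did not exceed 0.166 CPM. Wnt5b (chr6:119409323-119521897) shares 1244 exon bases with the ubiquitin ligase subunit gene Fbxl14 on the opposite strand, which had 38.6 CPM on average against 6.53 CPM for Wnt5b. Reads were counted with a strand setting, but the sources used here do not say whether the library kit marks strand, so reads of Wnt5b and Fbxl14 may not be told apart.

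The genes for ligand processing and release were expressed throughout. Wls, the Wnt carrier, had 287 ± 60.0 CPM in WT and 304 ± 81.0 CPM in KO (SD, n = 7 and 8), with a log2 fold change of 0.097 ± 0.19 (SE; adjusted p = 0.788, edgeR). Porcn had 21.6 ± 5.71 CPM in WT and 16.7 ± 6.69 CPM in KO, with -0.40 ± 0.26 (adjusted p = 0.358). Notum, a secreted enzyme that removes the lipid, was low, at 0.449 ± 0.460 CPM in WT and 0.756 ± 0.823 CPM in KO, with 0.76 ± 0.88 (adjusted p = 0.626). Of the 11 genes of the list, 0 were called in either direction by edgeR, and DESeq2 called 3 retromer subunits, which recycle Wls, higher (Vps29, Vps35 and Vps26a). Over all tested genes, DESeq2 called 5.28% higher and edgeR 0.564%. Trabd2b, a membrane protease that cleaves Wnt proteins, had 90.8 CPM in WT and 31.4 CPM in KO on average (-1.50 ± 0.63, adjusted p = 0.168, edgeR). The genotypes overlapped, with 19.1 to 270 CPM in WT and 5.99 to 83.7 CPM in KO. Without male WT 2, the highest library, the estimate was -0.96.

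On the receiving side, of 11 tested Frizzled and Lrp receptors, edgeR called 3 lower and 0 higher in the KO, against 0.591% and 0.564% of all tested genes. Of the 11 estimates, 10 were negative (median -0.80). Fzd5 fell from 246 to 56.0 CPM (log2 fold change -2.16 ± 0.41, SE; adjusted p = 0.0355), Fzd1 from 144 to 62.0 CPM (-1.23 ± 0.28; adjusted p = 0.0481) and Lrp6 from 211 to 106 CPM (-0.99 ± 0.22; adjusted p = 0.0441), all by edgeR. DESeq2 called 4 receptors lower, these 3 and Fzd4, and 0 higher, against 6.31% and 5.28% of the genes it tested. Fzd4 averaged 69.1 CPM in WT and 12.5 CPM in KO (-2.59 ± 0.71; adjusted p = 0.0705, edgeR). The 3 edgeR calls depended on single libraries. Of 15 fits that left out 1 library each, Fzd5 was called in 6, Lrp6 in 4 and Fzd1 in 2. They were also lost with the macrophage level in the model and with 1 of each near-identical pair left out, where 0 genes were called lower. The estimates stayed negative in these fits. With the macrophage level they were -1.71 ± 0.51 for Fzd5, -1.04 ± 0.28 for Lrp6 and -0.68 ± 0.30 for Fzd1 (adjusted p = 0.321, 0.275 and 0.516, edgeR). With 13 libraries they were -2.11 or -2.05 for Fzd5, -0.90 or -0.83 for Lrp6 and -1.34 in both cases for Fzd1 (adjusted p 0.0756 to 0.116).

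Of the 4 co-receptors of non-canonical signalling, 0 were called by edgeR or DESeq2. Ror2 had 10.6 ± 6.75 CPM in WT and 15.8 ± 6.01 CPM in KO (log2 fold change 0.59 ± 0.55; adjusted p = 0.540), and Ror1 had 20.2 ± 17.9 CPM in WT and 9.12 ± 8.28 CPM in KO (-1.09 ± 0.71; adjusted p = 0.370). Among 9 planar polarity genes and 7 tested secreted inhibitors, edgeR called 0 (DESeq2 called 4 polarity genes lower and 0 inhibitors). For these lists and the next, the shares over all tested genes were 0.591% lower and 0.564% higher by edgeR. By DESeq2 they were 6.31% lower and 5.28% higher. Of 11 tested feedback targets of β-catenin, edgeR called 1, the Dishevelled antagonist Nkd1, which fell from 23.6 to 2.40 CPM (-3.26 ± 0.74; adjusted p = 0.0497) and was called in 2 of 15 fits that left out 1 library. Nkd1 was -3.54 ± 0.86 with the macrophage level in the model and -2.95 or -2.72 with 13 libraries, and was not called in these fits (adjusted p = 0.236, 0.121 and 0.0963, edgeR). DESeq2 called 3 of these targets, Nkd1 as lower and the R-spondin receptor Lgr5 and the growth regulator Myc as higher. Lgr5 had 6.40 CPM in WT and 102 CPM in KO on average (3.96 ± 1.43; adjusted p = 0.121 in edgeR and 0.0101 in DESeq2), and Myc had 51.0 and 96.1 CPM (0.90 ± 0.30; adjusted p = 0.102 and 0.0490). Axin2, the most general target, had 1.30 ± 1.61 CPM in WT and 1.13 ± 1.26 CPM in KO (-0.20 ± 0.83; adjusted p = 0.913, edgeR).

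For the 2 ligands of highest level per kilobase, the genes with the most similar pattern over the 15 libraries were sought among 13202 genes with a mean of at least 1 CPM. For Wnt5a these were Ireb2, an iron-regulated RNA-binding protein (Spearman rho 0.889), Cstf2t (0.871) and Ptma (0.868). For Wnt10b they were the nuclear pore gene Nup35 (0.925), the acyl-CoA thioesterase Acot1 (0.918) and Tmem132a (0.911). With 1 of each near-identical pair left out, the 6 coefficients were 0.863 to 0.918 over 13 libraries. These are descriptions over libraries that differ in depth and culture make-up and include the near-identical pairs. The genes were chosen as the highest of many.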

How the data were processed

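Libraries were made by the SMART-Seq mRNA LP protocol from total RNA. The authors trimmed reads with fastp 0.23.1, aligned them to GRCm39 with GENCODE M31 by STAR 2.7.9a and deposited whole-number counts per gene from featureCounts (Subread 2.0.1, reverse-strand setting). From these counts, 18263 of 56832 genes passed filterByExpr on the 4 groups and were fitted in R 4.3.3 with edgeR 4.0.16 (TMM, quasi-likelihood F test, terms for sex label and genotype; 1 term per group for the contrasts within labels). The biological coefficient of variation was 0.494. Adjusted p-values are Benjamini-Hochberg over all tested genes. DESeq2 1.42.0 and limma 3.58.1 voom were alternatives, and the fits were tested on simulated data. CPM was divided by the union exon length from GENCODE M39 on GRCm39; Python 3.11.15 with SciPy 1.17.1 ran the exact permutation tests. A 95% interval is from the fitted error. Deviations of same-numbered WT and KO libraries from their group means correlated above 0.1 in all 4 male pairs (0.172 to 0.642, each WT library best with its own number) but in 1 of 3 female pairs (-0.028 to 0.335). The labels do not say what a number shares, so the replicate block was an alternative fit. PCR duplicates could not be removed without molecular identifiers, so limits cover counting error only.

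All 10 ligands were named. Of the other Wnt genes, those reaching 1 CPM were named, and other genes of the pathway were given by list with values for Porcn, Wls, Notum, Ror1, Ror2 and Axin2; genes of the lists named beyond these (Cd68, Trabd2b, Nkd1, Lgr5, Myc, retromer subunits and receptors) were chosen after their values were seen. The members and lists were chosen with earlier results of these data known, so they are not independent evidence.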

Additional observations from a re-analysis of the deposited data

Results flagged for a closer look

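Of 57 groups of 4 libraries examined (19 genes in 3 groups), 7 held a library whose gap to the nearest other library exceeded Dixon's 95% limit for its share of the group's range. For normally distributed values, chance flags about 1 in 20, or 2.85 of 57. These values were CPM on a linear scale, and the genes share libraries, so 7 against 2.85 does not establish an excess. Among the ligands these were Wnt2b in male WT 3 (2.08 CPM, gap 0.92 of the range), Wnt4 in female KO 2 (21.6 CPM, gap 0.958) and Wnt11 in the same library (20.2 CPM, gap 0.844). Wnt16 stood apart in male WT 1 (67.0 CPM, gap 0.865), whose near-identical library female WT 1 had 59.6 CPM. Porcn was low in male WT 3 (9.45 CPM, gap 0.879). Ror1 was high in male WT 1 (42.1 CPM, gap 0.846) and in male KO 2 (27.6 CPM, gap 0.864). The group of 3 female WT libraries was not examined in this way.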

How the results depend on the processing

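No ligand was called under 29 of 30 alternatives for the genotype contrast, and DESeq2 called 1 (Wnt6). Counts over all genes moved far more. Higher and lower calls, 103 and 108 in the reported fit, were 32 and 42 with no filter on low counts, 208 and 202 with no sex term, 659 and 535 with limma voom and 952 and 1139 with DESeq2. They were 0 and 0 with the macrophage covariate, in male-labelled libraries alone, in female-labelled libraries alone and in 12 libraries that leave out the 3 with contradicting Xist and Ddx3y, and 7 and 0 or 2 and 0 with the male-labelled or female-labelled library of each near-identical pair kept. Requiring 10 counts in every library left 5 ligands in the test and gave 200 lower genes. Leaving out 1 library gave 8 to 470 higher and 4 to 766 lower genes, both highest without male WT 3. In the male, female, difference and sex-label contrasts DESeq2 called 76, 410, 2 and 45 genes where edgeR called 0, 0, 0 and 3, and leaving out 1 library gave 0 to 1, 0 to 3 and, for the sex label, 1 to 4. The sex label gave 1 call with DESeq2 size factors in edgeR, 5 with male-labelled libraries of the pairs kept and 7 in the 12 libraries.

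Several estimates changed sign, none of them called in the reported fit. Wnt2 was -0.092 with voom and -0.15 in the 12 libraries. Wnt2b was 0.40 with the replicate block, 0.090 in males alone and 0.50 with voom. Wnt9a was 0.61 in females alone, and its female contrast -0.24 with the replicate block. Wnt10a was -0.63 with the macrophage covariate, -0.064 with DESeq2 and -0.060 with the male-labelled libraries kept. Wnt10b was -0.27 in females alone and -0.34 or -0.28 with 13 libraries. Axin2 was 0.22 with the block, 0.49 in females alone and 0.55 with voom. Without 1 library the ranges were -0.021 to 0.94 for Wnt2, -0.48 to 0.84 for Wnt2b, -0.12 to 0.50 for Wnt10a, -0.19 to 0.77 for Wnt10b, -1.999 to 0.0076 for Wnt16, -0.0094 to 0.16 for Wls and -0.80 to 0.67 for Axin2. Wnt10a fell below the filter and gave no value wherever a male-labelled library was left out. The causes were not tested.

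Neighbour pairs that differed were 3 in the reported order, 5 with the longest transcript as length and 3 to 5 without 1 library, while 6 ligands kept their rank by the median and 5 to 10 without 1 library. The non-canonical share in WT was 49.1% with Wnt16 in the sum but not counted as non-canonical.

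With the replicate block, 69 genes were higher and 102 lower and 0 ligands were called. In males alone the block gave 0 genes and 0 ligands called, with 2 ligands at an unadjusted p under 0.05. The filter taken from the model, the Wnt16 contrast and the share with Wnt16 were added after seeing the data.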
